A study of Arabidopsis thaliana with 12 samples.

Results

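RR16 (also called ARR16, AT2G40670) and ARR15 (AT1G74890) are members of the type-A family of cytokinin response regulators of Arabidopsis thaliana, followed here across both genotypes and both media of an auxin precursor experiment. They were taken from the probe sets whose annotation names exactly 1 of them and no other gene, so that 2 genes are described out of 13350 that a probe set names alone, and tests ran over all 22746 probe sets. Transcript levels were measured on 12 Affymetrix ATH1 arrays of root tip segments about 4 mm long, and each of the 3 independent biological replicates of a group pooled at least 120 root tips. The wild type was Col-0, and ibr1ibr3ibr10, in the Col-0 background, lacks the functions of IBR1, IBR3 and IBR10. Seedlings grew for 3 days after germination on medium without hormone and then spent 6 h on fresh medium with DMSO (control) or with IBA (indole-3-butyric acid, 10 µM). All groups therefore share the transfer and differ in genotype and IBA.

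Cytokinin is perceived at membrane histidine kinases, which pass phosphate through histidine phosphotransfer proteins to response regulators in the nucleus. Type-B response regulators are transcription factors that switch on cytokinin target genes, and among these targets are the type-A regulators, which lack the DNA-binding output domain and dampen the pathway as negative feedback. In roots, cytokinin and auxin act against each other at several points, including the size of the meristem and the founding of lateral roots, and transcripts of some type-A regulators also respond to auxin. IBA is a precursor that peroxisomes turn into the active auxin indole-3-acetic acid with the help of the IBR enzymes, so the comparison of genotypes addresses whether a response to IBA needs that conversion.

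Expression values are log2 values from robust multi-array averaging (RMA), which subtracts background, equalises the arrays and summarises the probes of each probe set, so 1 unit is a doubling. Levels of different probe sets are not comparable, and only changes of 1 probe set between groups are compared. Array medians lay between 5.17 and 5.29, and r between arrays of 1 group was 0.995 to 0.998, taken over probe sets that are themselves no replicates. No library stood apart. Of 34 tissue markers 4 had a probe set naming 1 gene: AGL42 of the stem cell niche, EXPA7 and EXPA18 of root hairs and epidermis and SGN3 of the endodermis; the 0 measured among 4 markers of green shoot tissue, and among those of root cap, xylem, phloem and stele, leave these tissues unchecked. No detection calls were used; a group mean is called dim where it is under 3.24, below which 30% of probe sets have their mean over all arrays, which is a rank and not a measured background. A change is called where the adjusted p of limma, a linear model fitted to all probe sets at once with Benjamini-Hochberg adjustment over them, was under 0.05.

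RR16 rose on IBA in Col-0 and not detectably in ibr1ibr3ibr10, and its level was lower in the mutant on both media. In Col-0 on DMSO replicates 1, 2 and 3 read 3.03, 2.87 and 2.57, and in Col-0 on IBA they read 3.57, 3.75 and 3.95. Each IBA array of Col-0 was above each DMSO array. In ibr1ibr3ibr10 on DMSO the replicates read 1.99, 2.24 and 2.22, and on IBA 1.97, 2.20 and 2.07. On each medium all mutant arrays lay below all Col-0 arrays, a separation that 11.4% of probe sets had on DMSO and 11.6% on IBA. The mutant arrays on both media overlapped. In root tip segments fewer cells of a type and less RNA per cell cannot be told apart, here and below.

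**Figure D1:**
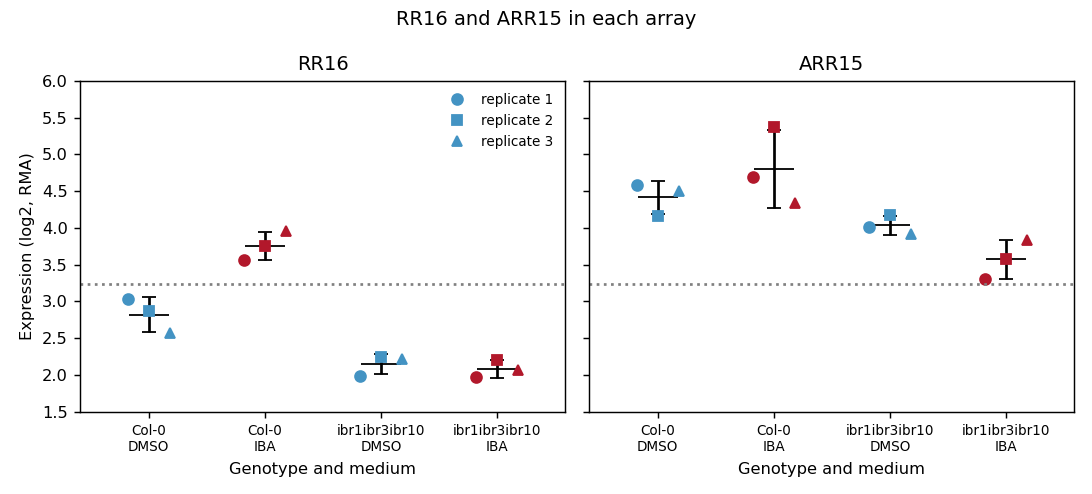
Expression of RR16 (left) and ARR15 (right) in each of the 12 arrays, as log2 RMA values on the vertical axis and by genotype and medium on the horizontal axis; points are single arrays with 1 shape per replicate number, black bars are the mean and SD (n = 3), and the dotted line is the dim level of 3.24. The RR16 arrays of Col-0 on IBA, 3.57 to 3.95, stand above the line and all other RR16 arrays below it, while ARR15 lies above the line in every array.

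The IBA response of RR16 in Col-0 was a rise from a dim 2.82 ± 0.23 to 3.76 ± 0.19 (log2, mean ± SD, n = 3), a change of 0.94 (95% interval 0.66 to 1.21) or 1.91-fold (limma, adjusted p = 8.77e-05). Of all probe sets tested, 12.1% were called higher in this comparison, and 16.6% had all 3 IBA arrays above all 3 DMSO arrays, so a rise is common here; a change of this size or more in either direction was seen in 3.12%. Because the DMSO mean is dim, the size is uncertain: with values raised to 3.24 the change was 0.51 (adjusted p = 0.00184). Scaling each array to its bacterial poly-A control transcripts, which lowered every IBA response in Col-0 by 0.44, left a rise of 0.49 (adjusted p = 0.0114).

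In ibr1ibr3ibr10 the RR16 level was 2.15 ± 0.14 with DMSO and 2.08 ± 0.12 with IBA (mean ± SD, n = 3), a change of -0.07 with a 95% interval of -0.34 to 0.20 (limma, adjusted p = 0.807), where 9.36% of probe sets were called in either direction. The interval holds changes between 0.79-fold and 1.15-fold, so a rise of the size seen in Col-0 lies outside it. Both mutant means are dim, with 7.01% of probe sets lower on DMSO and 5.03% lower on IBA. A fall could therefore not have been measured well, and the size of any rise is uncertain too, which the interval does not cover.

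The difference between both RR16 responses, the mutant change minus the Col-0 change, was -1.01 (SE 0.18, 95% interval -1.39 to -0.62; limma, adjusted p = 0.00316), and 3.54% of probe sets were called lower in this contrast. With values raised to the dim level it was -0.51 (adjusted p = 0.0326). All mutant arrays and the Col-0 DMSO arrays then equal that level, so this only restates the raised Col-0 rise. With scaling to the poly-A controls, which added 0.54 to the difference of every probe set, it was -0.47 and no longer called (adjusted p = 0.0894).

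Already without IBA, RR16 was lower in the mutant than in Col-0, by -0.67 on the log2 scale (95% interval -0.94 to -0.40) or 1.59-fold (limma, adjusted p = 0.0103). Of all probe sets 0.602% were called lower on DMSO, while 11.4% had all mutant arrays below all Col-0 arrays, as RR16 did. Both means are dim, and with values raised to 3.24 all 6 arrays were equal and the change was 0. The call was also lost without ibr1ibr3ibr10 DMSO replicate 1, the lowest of the 3 (adjusted p = 0.0635, change -0.59).

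On IBA the genotypes lay furthest apart. RR16 was lower in ibr1ibr3ibr10 by -1.68 (95% interval -1.95 to -1.41) or 3.20-fold (limma, adjusted p = 5.78e-07), a difference matched or exceeded in size by 111 probe sets, 0.488% of those tested. Of all probe sets 5.08% were called lower in the mutant on IBA, and 11.6% had all mutant arrays below all Col-0 arrays. The gap on IBA is the sum of the gap on DMSO, -0.67, and the difference of responses, -1.01. Raised to the dim level the gap was -0.51 (adjusted p = 0.00355), which again only restates the raised rise of Col-0.

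ARR15 had the same order of group means as RR16, highest in Col-0 on IBA, then Col-0 on DMSO, mutant on DMSO and mutant on IBA, but 1 of its 5 contrasts was called, against 4 for RR16. The ARR15 arrays of Col-0 on DMSO read 4.58, 4.16 and 4.51 in replicates 1, 2 and 3, and those of Col-0 on IBA read 4.69, 5.37 and 4.33. Replicate 3 on IBA lay inside the DMSO range, and replicate 2 was well above every other array. In ibr1ibr3ibr10 the arrays read 4.01, 4.18 and 3.91 on DMSO and 3.31, 3.57 and 3.84 on IBA. The mutant arrays on IBA were all below those on DMSO, although the nearest pair differed little.

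On IBA, ARR15 was at 4.80 ± 0.53 in Col-0 and 3.57 ± 0.26 in ibr1ibr3ibr10 (log2, mean ± SD, n = 3). The mutant level was lower by -1.23 (95% interval -1.68 to -0.77) or 2.34-fold (limma, adjusted p = 0.00123), and no array of 1 genotype reached the range of the other. Of all probe sets, 5.08% were called lower in this contrast and 11.6% had all mutant arrays below all Col-0 arrays. A difference this large or larger, in either direction, was seen in 1.01% of probe sets. With poly-A scaling, under which ARR15 was lower by -0.82 (adjusted p = 0.000269), the call held.

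The other ARR15 contrasts did not pass. On DMSO ARR15 was at 4.42 ± 0.22 in Col-0 and 4.03 ± 0.13 in the mutant (n = 3), a difference of -0.38 with a 95% interval of -0.84 to 0.07 (limma, adjusted p = 0.459), and replicate 2 of each group overlapped. The IBA change in Col-0 was 0.38 with an interval of -0.07 to 0.83 (limma, adjusted p = 0.221), and it turned to -0.059 with poly-A scaling. In the mutant the IBA change was -0.46 with an interval of -0.91 to -0.01 (limma, adjusted p = 0.209), although 16.8% of probe sets had the same separation of their arrays. The difference of responses was -0.84 with an interval of -1.48 to -0.20 (limma, adjusted p = 0.126). Without Col-0 IBA replicate 3 both the Col-0 rise (0.61, adjusted p = 0.0466) and the difference of responses (-1.08, adjusted p = 0.0303) passed. Without Col-0 IBA replicate 2, the highest array, they were 0.095 (adjusted p = 0.75) and -0.56 (adjusted p = 0.226), so both values rest on single arrays.

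**Figure D2:**
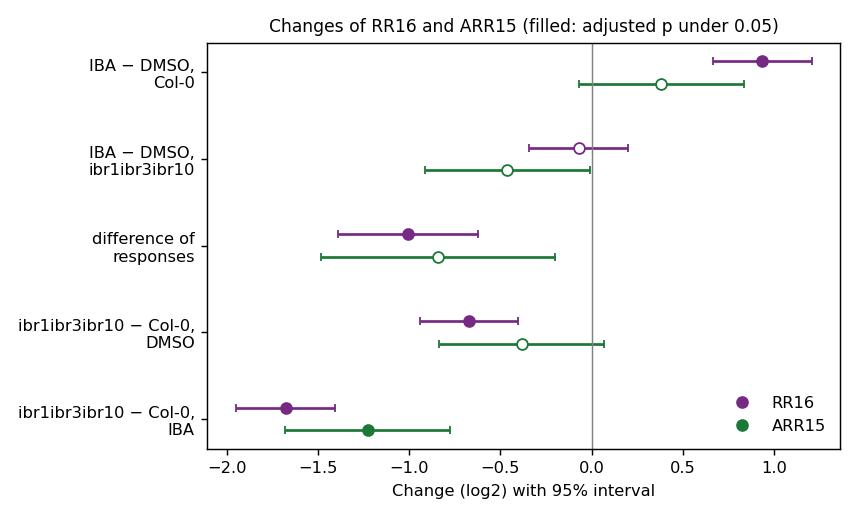
Changes of RR16 and ARR15 on the log2 scale (horizontal axis) in the 5 contrasts (vertical axis), with 95% intervals from limma; filled points have an adjusted p under 0.05. RR16 is called in 4 contrasts and ARR15 in 1, the genotype difference on IBA (-1.23), and the intervals of both genes overlap in every contrast.

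Whether both genes changed by different amounts was tested on the difference RR16 minus ARR15 within each array. In Col-0 the IBA change of RR16 exceeded that of ARR15 by 0.55 (exact permutation test, two-sided, p = 0.3, n = 3 per group), and in the mutant by 0.39 (exact permutation p = 0.2). The Col-0 value was 0.13 with dim values raised, 0.22 without Col-0 IBA replicate 3 and 0.85 without Col-0 IBA replicate 2. The genotype difference of RR16 minus that of ARR15 was -0.29 on DMSO (exact permutation p = 0.3) and -0.45 on IBA (exact permutation p = 0.4). With dim values raised both turned, to 0.38 and 0.71. Leaving out 1 array brought them as near to 0 as -0.14 on DMSO (without Col-0 DMSO replicate 2) and -0.12 on IBA (without Col-0 IBA replicate 3), and as far from it as -0.46 (without Col-0 DMSO replicate 3) and -0.74 (without Col-0 IBA replicate 2). After adjustment over the 4 comparisons all were at 0.4, and 3 arrays against 3 cannot give less than 0.1. An unequal response of RR16 and ARR15 was therefore not shown, and neither was an equal one.

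The spread between replicates was larger for ARR15. Its residual SD within groups was 0.32, above that of 99.4% of probe sets, against 0.18 for RR16, above 83.6%. Of the 3 steps between neighbours in the order of RR16 levels, Col-0 on IBA against Col-0 on DMSO and Col-0 on DMSO against the mutant on DMSO differed beyond the spread, and the mutant on DMSO against the mutant on IBA did not. The step between genotypes on DMSO joins dim means, and its call was lost without ibr1ibr3ibr10 DMSO replicate 1 (limma, adjusted p = 0.0635). For ARR15 no pair of neighbours in the order passed, and the called difference was between Col-0 on IBA and the mutant on IBA, the ends of that order.

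The other type-A regulators, the receptors and the phosphotransfer proteins of the pathway have no probe set naming 1 gene here, and of 81 listed cytokinin genes besides RR16 and ARR15 5 were measured. The annotation used names no gene for 8730 of 22746 probe sets, so genes counted as not measured may still be on the array. Both measured genes of cytokinin inactivation, UGT76C1 and UGT76C2, which encode glucosyltransferases that attach glucose to the ring nitrogen of cytokinins, rose on IBA in Col-0. UGT76C2 moved up by 0.85 (SE 0.11), from a mean of 5.28 ± 0.11 to 6.14 ± 0.26 (SD, n = 3; limma, adjusted p = 7.48e-05). UGT76C1 moved up by 0.46 (SE 0.08), from 3.84 ± 0.12 to 4.30 ± 0.06 (SD, n = 3; limma, adjusted p = 0.000849). In both genes all IBA arrays of Col-0 were above all DMSO arrays, the separation that RR16 showed and that 16.6% of all probe sets had. With poly-A scaling UGT76C2 stayed higher (0.41, adjusted p = 0.0284), whereas the UGT76C1 call ended (0.02, adjusted p = 0.934).

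The 3 other measured genes of the list were the type-B regulators RR18 (ARR18) and RR19 (ARR19) and the type-C regulator RR22 (ARR22), whose mRNAs were dim in all 4 groups, with means from 2.28 to 2.73. Their IBA changes in Col-0 were -0.01, -0.21 and 0.01, and none passed. Of the 5 genes 2 rose and 0 fell in Col-0, where 12.1% of all probe sets were called higher, with a median change of 0.01 against -0.04 over all probe sets; with poly-A scaling 1 rose and 3 fell. In ibr1ibr3ibr10 the same limma fit called 0 of 5 on IBA, none of which had an unadjusted p under 0.05, where 9.36% of all probe sets were called, with a median of 0.07 against -0.01.

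UGT76C2 did not follow RR16 on DMSO. Its mutant level there was 5.82 ± 0.06 against 5.28 ± 0.11 in Col-0 (n = 3), higher by 0.54 (SE 0.11; limma, adjusted p = 0.0203), where RR16 was lower, and it was the 1 of 5 listed genes called on DMSO, where 1.82% of all probe sets were called higher. This call was lost on leaving out 1 of 5 of the 6 arrays in turn (all but Col-0 DMSO replicate 3; adjusted p up to 0.0888), while the change stayed between 0.50 and 0.56, and with poly-A scaling (0.405, adjusted p = 0.441). On IBA the mutant level of UGT76C2 was 5.89 ± 0.10 (n = 3), so its change there was 0.07 (SE 0.11) and its difference of responses -0.79 (SE 0.16; limma, adjusted p = 0.00801), or -0.25 with poly-A scaling (adjusted p = 0.34). On IBA 0 of 5 list genes differed between genotypes by limma, where 2508 of all 22746 probe sets were called. UGT76C2 was the 1 list gene with an unadjusted p under 0.05 there.

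**Figure D3:**
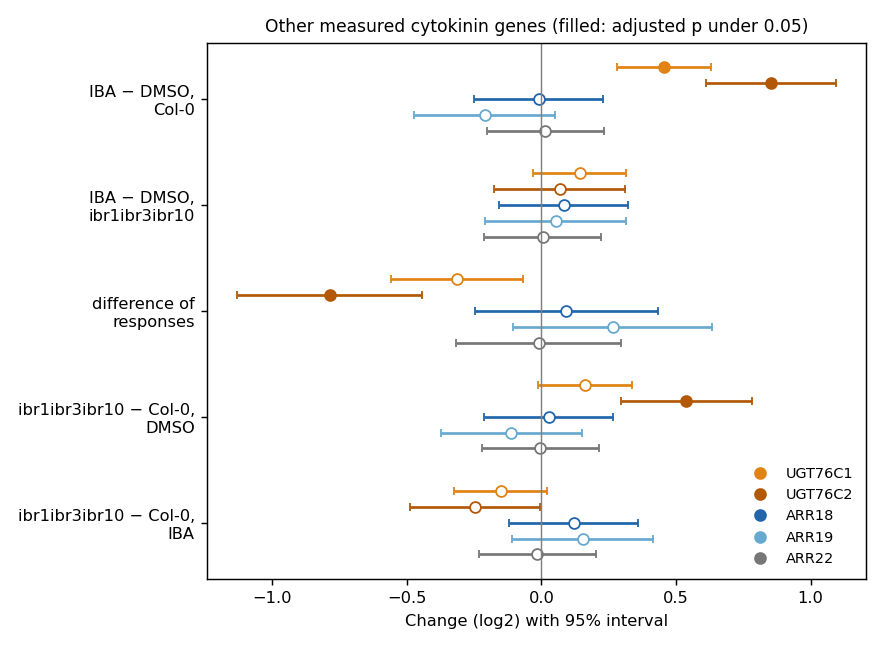
Changes of the 5 other measured cytokinin genes on the log2 scale (horizontal axis) in the 5 contrasts (vertical axis), with 95% intervals from limma; filled points have an adjusted p under 0.05. UGT76C1 (0.46) and UGT76C2 (0.85) are called in the IBA response of Col-0, while the intervals of ARR18, ARR19 and ARR22, named RR18, RR19 and RR22 in the annotation, include 0 in every contrast.

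Genes whose pattern over the 12 arrays was most like that of RR16, among 13349 others, were AT1G25240 (Pearson r = 0.978), AT4G38950 (0.973), AT2G22590 (0.960), ATL63 (0.959), of the ATL family of RING finger ubiquitin ligases, and GH9C1 (0.957), a glycosyl hydrolase of family 9. Since they were picked for likeness over the same arrays, their changes are a description and the calls they share with RR16 follow from the choice. In each of these 5 the IBA change was called in Col-0, between 0.37 for ATL63 and 1.21 for AT1G25240, and not in the mutant, and the mutant was called lower on IBA, by between -0.57 for ATL63 and -1.93 for AT1G25240. AT2G22590 was also called lower in the mutant on DMSO (-0.71; limma, adjusted p = 0.00183), as RR16 was. AT1G25240, AT4G38950, ATL63 and GH9C1 were not called there, where 0.602% of all probe sets were called lower. With poly-A scaling the rise of AT1G25240 (0.77) stayed called, and those of the other 4 ended, with -0.042 for AT2G22590 and -0.072 for ATL63; on IBA the genotype calls of ATL63 (-0.16) and AT4G38950 (-0.35) ended as well.

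The genes most like ARR15 were AT1G09390 (r = 0.955), AT5G62210 (0.943), AT4G27350 (0.932), AT1G33260 (0.932) and AT5G51670 (0.929). These were picked in the same way, so the call they share with ARR15 follows from the choice too. All 5 were called lower in the mutant on IBA, by between -0.61 for AT1G33260 and -1.57 for AT5G62210. AT5G62210 and AT4G27350 also fell on IBA in the mutant, by -0.79 and -0.36 (limma, adjusted p = 0.00893 and 0.0194), while ARR15 did not pass there (-0.46). AT1G09390, AT1G33260 and AT5G51670 were not called in that comparison either, where 881 of 22746 probe sets were called lower. With poly-A scaling the fall of AT4G27350 (-0.26, adjusted p = 0.68) and the genotype calls on IBA of AT1G33260 (-0.21) and AT5G51670 (-0.31) ended. ARR15 itself ranked at 239 among the genes most like RR16 (r = 0.777). The deviations of RR16 and ARR15 from their own group means correlated at r = -0.09 over the 12 arrays.

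As known auxin-responsive genes, GH3.3 and LBD16 set a scale for these sizes. GH3.3, whose product joins auxin to amino acids, rose by 5.31 in Col-0 and LBD16, a transcription factor gene of lateral root initiation, by 1.47, against 0.94 for RR16. In the mutant LBD16 fell on IBA by -0.77 (limma, adjusted p = 0.000378), where 9.36% of probe sets were called in either direction. GH3.3, dim there on both media, changed by -0.41 and was not called (limma, adjusted p = 0.174). On DMSO, where RR16 was lower in the mutant, GH3.3 differed by 0.16 (95% interval -0.22 to 0.53) and LBD16 by -0.09 (-0.31 to 0.14), and neither was called. GH3.3 was dim on DMSO in both genotypes, at 2.62 and 2.78, so the size of its rise is uncertain and a difference on DMSO could not have been measured well.

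Among the markers of root hairs and epidermis, EXPA18 was lower in the mutant on both media and EXPA7 on IBA. Of all probe sets, 0.602% were called lower in the mutant on DMSO and 5.08% on IBA. EXPA18, an expansin gene of root hairs, was lower in the mutant by -0.46 on DMSO (limma, adjusted p = 0.0131) and by -1.31 on IBA (limma, adjusted p = 2.23e-07), and EXPA7, of the same family, by -0.27 on IBA (limma, adjusted p = 0.0249) and by -0.16 on DMSO, which did not pass (limma, adjusted p = 0.359). In the mutant EXPA18 and EXPA7 fell on IBA, by -0.60 and -0.26 (limma, adjusted p = 0.000793 and 0.0389), and neither was called with poly-A scaling. In that comparison 9.36% of probe sets were called in either direction. In Col-0 EXPA18 and EXPA7 moved in opposite directions on IBA, by 0.25 and -0.14, and neither was called. SGN3 fell there by -0.33 (limma, adjusted p = 0.0103), where 2587 of 22746 probe sets were called lower. The summed level of EXPA7 and EXPA18, which weights each by the affinity of its probes and serves only to set groups side by side, was on the log2 scale 9.44 to 9.58 in Col-0 on DMSO, 9.56 to 9.70 in Col-0 on IBA, 9.13 to 9.27 in the mutant on DMSO and 8.78 to 8.83 in the mutant on IBA. With poly-A scaling EXPA7 on IBA was at 0.13, higher in the mutant and not called, and EXPA18 on DMSO was no longer called (adjusted p = 0.0942). SGN3, of the endodermis, was higher in the mutant on IBA by 0.32 (limma, adjusted p = 0.0231), where 1353 of 22746 probe sets were called higher. AGL42 was not called in any contrast. The part of these markers in the results on RR16 and ARR15 was not tested.

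**Figure D4:**
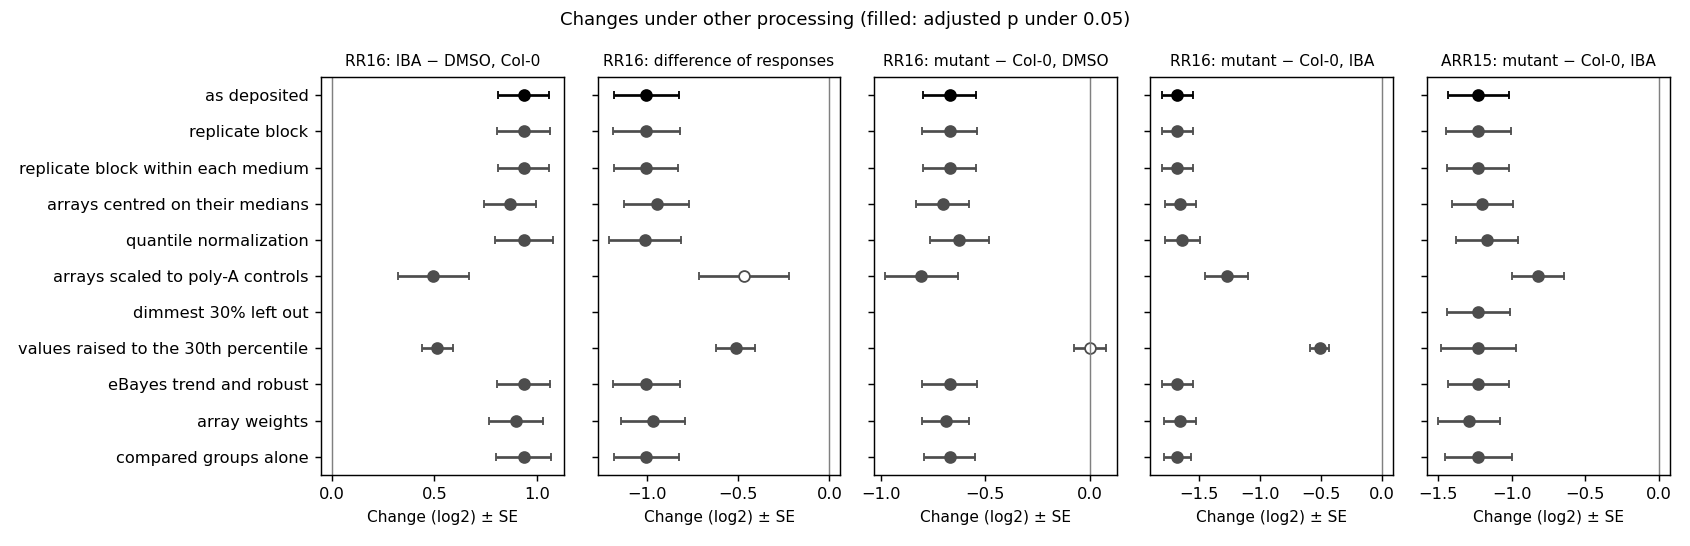
The 5 called changes of RR16 and ARR15 on the log2 scale (horizontal axes, 1 panel per change) under the values as deposited and other ways of processing them (vertical axis), as estimates with their SE; filled points have an adjusted p under 0.05. The RR16 difference of responses is not called with poly-A scaling (-0.47) and the RR16 difference on DMSO is 0 with values raised to the dim level; RR16 has no value where the dimmest 30% of probe sets were left out.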

How the data were processed

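Total RNA (100 ng per sample, with bacterial control transcripts) was amplified, biotin-labelled and hybridised in 1 colour, per the labels' protocols. The deposited log2 expression values were made by the authors; the submitters' processing notes name RMA and affy 1.40.0, and whether all arrays were processed as 1 set is not stated there. Titles give 0 h for DMSO samples and shorten the mutant to ibr3; the treatment and genotype labels (6 h, ibr1ibr3ibr10) were used. Under the titles, IBA and time after transfer could not be told apart. Arrays have no read depth, and their number limits the precision.

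From these values, 64 Affymetrix control probe sets of 22810 were left out, and limma 3.58.1 (R 4.3.3; lmFit, eBayes) estimated 4 group means from 12 arrays, two-sided, without a filter. Intervals are 95% intervals of that fit. The platform annotation names 1 gene for 13513 probe sets, several for 503 and none for 8730; Entrez identifiers gave current symbols from RefSeq (TAIR10.1), where 77 were not found. The probe set with the highest mean stood for each gene, which gave 13350 genes. Named genes were RR16, ARR15, all measured cytokinin list genes, the 5 most like each member by Pearson r, and GH3.3 and LBD16. Members, lists and tests were chosen with earlier results of these data known.

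Alternatives were a replicate block (overall or within each medium), median centring, quantile normalization, scaling to 24 poly-A control probe sets, leaving out or raising the dimmest 30%, the compared groups alone, trend and robust eBayes, array weights and leaving out each array. Same-numbered arrays deviated together by r = -0.21 to 0.17 over 12 pairs, so the numbers were not taken to pair the arrays. Promoter motifs were not analysed here.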

Additional observations from a re-analysis of the deposited data

Results flagged for a closer look

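The IBA responses of RR16 differed between the genotypes by the test of the difference itself, with a mutant change lower by -1.01 (SE 0.18; limma, adjusted p = 0.00316). The same test passed for UGT76C2, at -0.79 (SE 0.16; limma, adjusted p = 0.00801), and for the root hair marker EXPA18, at -0.85 (SE 0.13; limma, adjusted p = 0.000855). Only RR16, ARR15, the listed cytokinin genes and the tissue markers were looked through for this. Over all probe sets 3.54% were called lower in this contrast. Outside those lists GH3.3 (-5.72) and LBD16 (-2.24) were called lower as well. EXPA7, the other measured root hair marker, did not pass (-0.12, limma, adjusted p = 0.614). Under scaling to the poly-A controls RR16, UGT76C2 and EXPA18 kept their direction at -0.47, -0.25 and -0.31 and were not called.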

How the results depend on the processing

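The RR16 rise in Col-0, its difference on IBA and the ARR15 difference on IBA kept direction and call under every alternative run. RR16 was absent where the dimmest 30% were left out. With dim values raised, the RR16 difference on IBA only restates its rise in Col-0. With a replicate block no call of RR16 or ARR15 changed (RR16 in Col-0 0.94, adjusted p = 0.000341); the sign-flip version over 3 pairs could give no p under 0.25. With poly-A scaling the RR16 difference of responses lost its call (-0.47), RR16 in the mutant turned to 0.028 and ARR15 in Col-0 to -0.059. With that scaling, which shifts all probe sets, calls in Col-0 were 17010 (723 higher, 16287 lower) against 5345 (2758 and 2587), in the mutant 947 (798 and 149) against 2129 (1248 and 881), for the difference of responses 11874 (11637 and 237) against 1478 (672 and 806), on DMSO 207 (114 and 93) against 550 (413 and 137) and on IBA 13372 (13030 and 342) against 2508 (1353 and 1155). It called 4 cytokinin genes in Col-0 (1 higher, 3 lower) against 2 (both higher), 2 for the difference (both higher) against 1 (lower), 0 on DMSO against 1 (higher) and 3 on IBA (all higher) against 0. With dim values raised the RR16 difference on DMSO was 0, 317 probe sets and 0 cytokinin genes were called on DMSO, and RR16 minus ARR15 between genotypes was 0.38 on DMSO and 0.71 on IBA, since RR16 then varies less by construction. A replicate block within each medium also left 0 cytokinin genes on DMSO. Leaving out each array in turn, ARR15 ranged from 0.10 to 0.61 in Col-0 and from -1.08 to -0.56 for the difference of responses, both lowest in size without Col-0 IBA replicate 2 and called without Col-0 IBA replicate 3, and RR16 on DMSO from -0.80 to -0.57, not called without ibr1ibr3ibr10 DMSO replicate 1. Probe sets called ranged from 1168 to 1829 in the mutant (1168 without ibr1ibr3ibr10 DMSO replicate 2, 1398 without its replicate 3 and 1298 without ibr1ibr3ibr10 IBA replicate 3) and from 277 to 468 on DMSO (277 without ibr1ibr3ibr10 DMSO replicate 1, 363 without its replicate 2, 357 without Col-0 DMSO replicate 2 and 298 without its replicate 3). Cytokinin genes called ranged from 0 to 1 on DMSO and on IBA, where UGT76C2 was called without Col-0 IBA replicate 1. Unless stated, the causes were not tested.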

Other observations

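RR23 (ARR23), a further response regulator gene with a probe set of its own, was singled out from the annotation and is in no list. Its means were dim in all 4 groups, from 2.30 ± 0.14 in Col-0 on IBA to 2.42 ± 0.06 in Col-0 on DMSO (log2, mean ± SD, n = 3), and no contrast was called.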
